A study of Sus scrofa with 9 samples.

Results

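On the Affymetrix Porcine Genome Array, 5 probe sets carried HBB, HBM, ALAS2, FECH or BPGM as their single gene symbol. These are genes of haemoglobin, of haem synthesis and of red cell metabolism. All probe sets with 1 of these 5 symbols were taken, which gave 1 probe set per gene, 5 of the 23999 probe sets tested and 5 of the 6765 genes named on the array. Additional molar germs, the permanent molars behind the milk teeth, were dissected with their dental lamina from the mandibles of untreated Wuzhishan miniature pig embryos at embryonic days 50, 60 and 70 (E50, E60 and E70), and 3 arrays were hybridised per stage, 9 in all. These days span the cap, bell and late bell shapes of the first additional molar, and the germ of the second becomes visible at E60. GEO labels set the stages, and a supplementary table of the study heads the youngest arrays with a somewhat later day. RNA came from germs pooled within a stage and litter. Whether the 3 arrays of a stage stand for separate litters is not known, so the p-values reflect the scatter among these 9 arrays and no other source of variation, and this scatter may be technical.

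Haemoglobin pairs alpha-type with beta-type globin chains, each holding a haem group, and the globin genes lie in an alpha cluster and a beta cluster whose members are switched on in turn during development. Erythroid haem synthesis starts at ALAS2 and ends at FECH, which puts iron into the ring. A dissected tooth germ contains blood vessels, so the RNA of red cells and their precursors can enter the extract. HBB encodes the beta-globin chain, HBM the mu-globin chain of the alpha cluster, and BPGM the enzyme that makes 2,3-bisphosphoglycerate, which lowers the oxygen affinity of haemoglobin.

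The arrays gave a MAS 5.0 signal per probe set, scaled so that the trimmed mean was 500.1 on each array. The E50 arrays stood apart from the rest. Their background, the 95th percentile of 23 control probe sets for foreign sequences, ranged from 77.7 to 379. At E60 the background ranged from 37.9 to 54.4, and at E70 from 38.1 to 55.8. The hybridisation spike-ins had a geometric mean of 63310 at E50 against 4227 at E60 and 3571 at E70. The 3' to 5' signal ratio of the EF1A control, which rises when RNA is short, had a geometric mean of 52.0 at E50 against 1.48 at E60 and 1.40 for the E70 arrays. Arrays of a stage correlated with r of 0.605 to 0.683 at E50 and of 0.901 to 0.921 at the later stages. Every comparison with E50 carries these differences, whose part in it was not tested. The E60 and E70 arrays were close in these measures, but the 3' to 5' ratio of GAPDH was 6.98 to 9.24 at E60 and 4.36 to 6.47 at E70, without overlap. Of 9 measured markers of tooth germ tissue, 5 (MSX1, DLX5, BMP4, LEF1 and CDH1) lay above background on all 9 arrays, and 11 of the 20 listed markers had no probe set with a symbol of their own.

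HBB went up while HBM and ALAS2 went down between E50 and E70, and FECH and BPGM did not pass the test. From E50 to E70 the HBB signal rose 4.19-fold, HBM fell 4.65-fold and ALAS2 fell 7.99-fold. The ALAS2 value was 4.98-fold without E70 replicate 3, where its signal lay below background, and with the medians of the arrays set equal the 3 values were 6.85-fold, 2.84-fold and 4.89-fold in the same directions. Over the 3 stages 3 of the 5 genes were differentially expressed (moderated F of limma over all 9 arrays, adjusted p of 0.0102 for HBB, 0.0161 for HBM and 0.0257 for ALAS2), against 17.7% of all probe sets. The F of ALAS2 no longer passed without E50 replicate 2, without any 1 of the E60 arrays or without E70 replicate 1 (adjusted p 0.0532 to 0.0575), nor with median centring (0.0573) or quantile normalization (0.0536), and that of HBM without E70 replicate 1 (0.0533) or 3 (0.0643). With array weights the F of HBB (adjusted p = 0.0525) and that of ALAS2 (0.0982) did not pass. Adjusted p was 0.372 for FECH, which passed under median centring (0.0489), and 0.353 for BPGM. Among all probe sets 8.16% were called higher at E70 than at E50 and 10.6% lower, so neither direction was rare in these data. In bulk tissue, fewer cells of a type and less RNA per cell cannot be told apart.

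**Figure D1:**
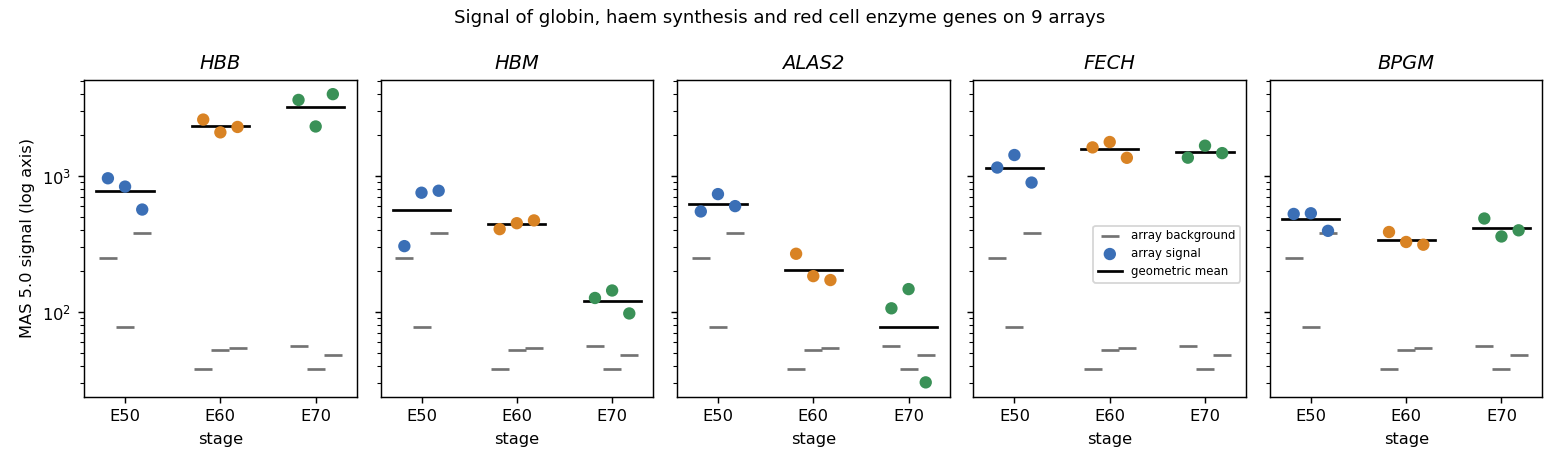
MAS 5.0 signal (log axis) of each gene on the 9 arrays by stage (points, arrays; black bars, geometric mean of 3 arrays; grey ticks, background of the array). HBB climbs from 566 to 961 at E50 to 2310 to 3994 at E70, HBM and ALAS2 descend, and the E50 backgrounds come close to several E50 points.

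For HBB, the beta-globin gene, the E50 arrays read 961, 834 and 566, the E60 arrays 2596, 2091 and 2291, and the E70 arrays 3621, 2310 and 3994. All arrays of the later stages lay above all E50 arrays, and E60 and E70 overlapped. Between E50 and E60 the log2 signal rose by 1.59 (SE 0.31, n = 3 arrays per stage, limma adjusted p = 0.0148), or 3.02-fold, and this was the 1 of 5 genes that passed there, where 18.5% of all probe sets did and 7.85% were called higher. Its call was lost without E60 replicate 1 (adjusted p = 0.0626) or E60 replicate 3 (0.0522), and with array weights (0.0795). From E60 to E70 the change was 0.48 (SE 0.31, 95% interval -0.26 to 1.21, adjusted p = 0.889). Over the whole interval the rise was 2.07 (SE 0.31, adjusted p = 0.00541), and it passed with every array left out in turn (highest adjusted p 0.0266). The order of levels was therefore E50 below E60 and E70, and the latter did not differ beyond their spread. On E50 replicate 3 the HBB signal was 1.49 times the array's background, the lowest such ratio for this gene, while at E60 and E70 it was 39.7 to 83.3 times.

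HBM had its lowest signals at E70. The E50 arrays read 304, 752 and 778, the E60 arrays 406, 449 and 471, and the E70 arrays 127, 144 and 97.4. E50 and E60 overlapped, with the E50 arrays widely spread (SD 0.77 on the log2 scale), and all E70 arrays lay below all others. The change from E50 to E60 was -0.35 (SE 0.39, 95% interval -1.27 to 0.57, adjusted p = 0.564), and it changed sign under median centring of the arrays (0.42). From E60 to E70 the change was -1.87 (SE 0.39), a 3.65-fold difference between the geometric means of 441 and 121, with adjusted p = 0.169 in the fit of all 9 arrays and 0.0242 when only the arrays of E60 and E70 were fitted. Between E50 and E70 HBM fell by 2.22 (SE 0.39, adjusted p = 0.00962), and the call was kept without any 1 array (highest adjusted p 0.0423) and lost in the fit of those stages alone (0.0523). In multiples of array background, HBM had an E50 range of 1.23 to 9.69, which held all its E70 values (2.03 to 3.77). By this measure HBM on E70 arrays still lay below E60 (8.52 to 10.7), and the part of background was not tested. Its probe set is of a type that may match several transcripts of the gene, and whether RNA of other alpha-type globins binds to it was not tested.

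ALAS2 encodes the erythroid form of 5-aminolevulinate synthase, the first enzyme of the pathway. Its signal was 548, 735 and 600 at E50, 268, 183 and 171 at E60, and 106, 147 and 30.3 at E70. No pair of stages overlapped, and the last array lay below its background of 48.0, so that ALAS2 was above background on 8 of 9 arrays. The step from E50 to E60 was -1.61 (SE 0.57, adjusted p = 0.0889) and the step from E60 to E70 was -1.38 (SE 0.57, adjusted p = 0.610), so neither passed alone. Over both, ALAS2 fell by 3.00 (SE 0.57, adjusted p = 0.0121). Relative to array background, the ALAS2 signals of E50 spanned 1.58 to 9.46 times. This span overlapped those of E60 (3.15 to 7.06) and E70 (0.63 to 3.86), and the part of background in the fall was not tested. Without E70 replicate 3, the array below background, the fall from E50 to E70 was 2.32 and still passed, and the step from E60 to E70 was -0.70. Array weights (adjusted p = 0.113) and the fit of E50 and E70 alone (0.0538) ended the call.

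FECH, ferrochelatase, joins iron and protoporphyrin at the last step of haem synthesis in every cell that makes haem. It read 1152, 1424 and 893 at E50, 1621, 1775 and 1359 at E60, and 1362, 1668 and 1471 at E70. The stages overlapped in every pair. The changes were 0.47 (95% interval -0.12 to 1.07), -0.08 (-0.67 to 0.52) and 0.40 (-0.20 to 0.99) for the first step, the second step and the whole interval, and the ALAS2 estimates for E60 minus E50 and E70 minus E50 lay below the FECH intervals. No neighbouring levels of FECH differed beyond their spread.

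BPGM signals were 525, 531 and 394 at E50, 387, 327 and 312 at E60, and 486, 359 and 398 at E70. E60 lay below E50 on all arrays, and E70 overlapped with both. The changes were -0.49 (95% interval -1.06 to 0.07, adjusted p = 0.194), 0.27 (-0.29 to 0.84, adjusted p = 0.992) and -0.22 (-0.79 to 0.34, adjusted p = 0.553) in the same order of comparisons, and both comparisons with E50 turned positive under median centring (0.28 and 0.49). No pair of its levels passed the test. On E50 replicate 3 BPGM stood at 1.04 times the background.

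**Figure D2:**
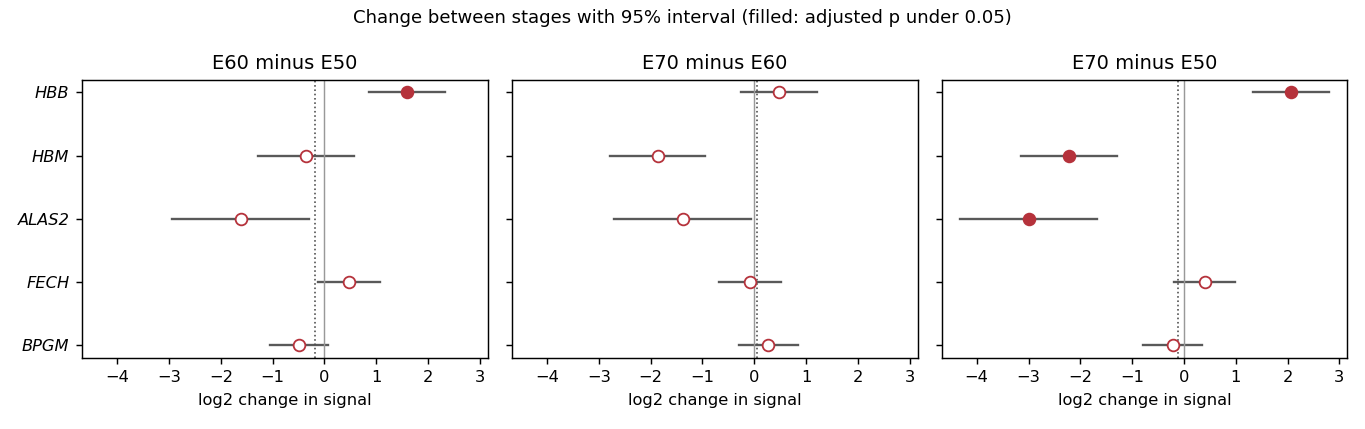
Log2 change of each gene between stages (points, limma estimate; lines, 95% interval; filled points, adjusted p under 0.05 over all probe sets; dotted line, median change of all probe sets). HBB passes at 1.59 and 2.07 against E50, HBM and ALAS2 pass at -2.22 and -3.00 between E50 and E70, and no gene passes between E60 and E70.

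Counted by comparison, 1 of the 5 genes passed for E60 minus E50, 0 for E70 minus E60 and 3 for E70 minus E50, where 18.5%, 0.421% and 18.8% of all probe sets passed. Between E60 and E70 limma called 0 genes at the adjusted threshold, but HBM and ALAS2 had an unadjusted p under 0.05 (0.00179 and 0.0428), as had 7.73% of all probe sets. When the E50 arrays were left out of the fit, 1 of the 5 passed. That fit called 420 of the 23999 probe sets, against 101 when the E50 arrays were included. Arrays did not overlap between stages for 3, 2 and 3 genes, against 39.2%, 28.2% and 37.4% of all probe sets. The median change of the 5 genes was -0.35, -0.08 and -0.22, and that of all probe sets was -0.18, 0.05 and -0.11.

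A ratio of 2 signals on the same array does not depend on how the array was scaled. Its change between stages shows unequal change of the 2 signals, though its level compares different probes and has no meaning alone. Background and RNA length, which differed at E50, can still enter the ratio, and their part in the steps from E50 was not tested. The log2 ratio of HBB to HBM was 1.66, 0.15 and -0.46 at E50, 2.68, 2.22 and 2.28 at E60, and 4.84, 4.01 and 5.36 at E70. The values were higher at each later stage with no overlap, by 1.94 on average in the first step and 2.34 in the second. For HBB to ALAS2 the stage means were 0.30, 3.51 and 5.37, again with no overlap, and the last was 4.53 without E70 replicate 3, where ALAS2 lay below background. The ratio of ALAS2 to FECH, the first enzyme against the last, was lower at each later stage, with means of -0.87, -2.95 and -4.26 and no overlap, the last being -3.59 without that array. HBM to ALAS2 had means of -0.15, 1.12 and 0.63 (0.11 without that array), and E70 overlapped with both E50 and E60. Of the 10 pairs possible, these 4, and the means without 1 array, were chosen after their values were seen, and the ratios are a description with no test.

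**Figure D3:**
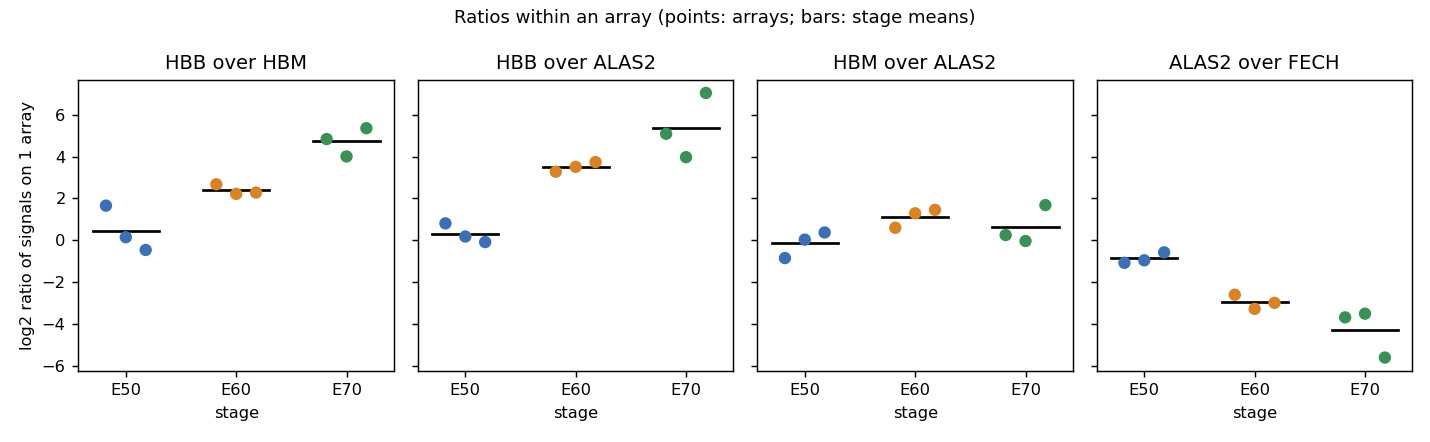
Log2 ratio of 2 signals on the same array by stage (points, arrays; bars, mean of 3 arrays). HBB over HBM and HBB over ALAS2 step up at each stage without overlap, ALAS2 over FECH steps down, and HBM over ALAS2 at E70 overlaps with both E50 and E60.

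Genes around these 5 were read from 8 lists of the pathway, with 79 measured genes in all. Of these, 10 passed for E60 minus E50 and 16 for E70 minus E50, or 12.7% and 20.3%, where 18.5% and 18.8% of all probe sets did. Setting the medians of the arrays equal ended 13 of the 16 calls of a fall given below for genes other than the 5, and none of the 6 calls of a rise. This setting moved all changes from E50 upward, by 0.77 for E60 minus E50. It therefore made falls smaller and rises larger, and could not put the rises to a test. Of 16 listed haem synthesis enzymes and transporters, 10 were measured, and 7 of these lay above background on all arrays. None passed for E60 minus E50 or E70 minus E60. ALAS2 and TSPO, an outer mitochondrial membrane protein that binds porphyrins, were lower at E70 than at E50. TSPO had stage means of 2601, 1583 and 1275 and fell by 1.03 (SE 0.26, adjusted p = 0.0342), a call kept in 3 of 9 fits with 1 array left out (without E50 replicate 1, E50 replicate 3 or E70 replicate 1), and its change was -0.32 under median centring (adjusted p = 0.485). ALAS1, the form of the first enzyme used outside the red cell lineage, had stage means of 491, 427 and 542 and changed by 0.14 from E50 to E70 (adjusted p = 0.834). The list's median change was -0.49, 0.05 and -0.46 in the 3 comparisons.

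Of 15 listed globins and the globin chaperone, 6 were measured and 2, HBB and HBM, lay above background on all arrays. No probe set carried the symbol of an alpha-globin, HBZ or a gamma-globin gene alone, so the partner chains of HBB were not followed here. HBE1, the embryonic epsilon-globin gene of the same cluster as HBB, read 386, 264 and 38.1 at E50, 24.9, 68.6 and 101 at E60, and 6.67, 29.4 and 33.1 at E70. It was above background on 4 of 9 arrays, and its change from E50 to E70 was -3.07 (SE 1.05, adjusted p = 0.0818). AHSP, the chaperone of free alpha-globin, read 794, 268 and 23.5, then 170, 255 and 313, then 30.5, 112 and 66.9, and changed by -1.48 over the interval (SE 1.20, adjusted p = 0.418). Both were named after their values were seen.

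Among 14 measured of 23 erythroid regulators and receptors, BCL11A was higher and EPOR lower at both later stages than at E50, and LMO2 was lower at E70. BCL11A, a repressor known for silencing fetal-type globin genes in human red cells and also active in other tissues, read 61.6, 349 and 38.2 at E50, 692, 575 and 653 at E60, and 991, 997 and 762 at E70 (adjusted p = 0.0404 and 0.0223 against E50). It was above background on 1 of 3 E50 arrays and on all later ones, so the size of its rise was not measured, and its call was kept in 1 of 9 fits with 1 array left out for E60 minus E50 (without E50 replicate 2), and in 6 of 9 for E70 minus E50, where it was lost without any 1 of the E70 arrays. EPOR, the erythropoietin receptor, had means of 316, 57.8 and 37.7 (E70 minus E50 -3.07, SE 0.63, adjusted p = 0.0164) and lay above background on 5 of 9 arrays. Its calls were kept in 2 of 9 such fits for E60 minus E50 (without E50 replicate 1 or E70 replicate 3) and in 8 of 9 for E70 minus E50 (lost without E70 replicate 3). LMO2, a bridging protein of erythroid and endothelial transcription complexes, fell by 1.01 (SE 0.22, adjusted p = 0.0201), and the call was lost without E70 replicate 2 or 3 and under median centring (-0.30, adjusted p = 0.375). KLF1, the activator of beta-globin, was above background on 5 of 9 arrays and changed by -1.76 from E50 to E70 (adjusted p = 0.157).

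**Figure D4:**
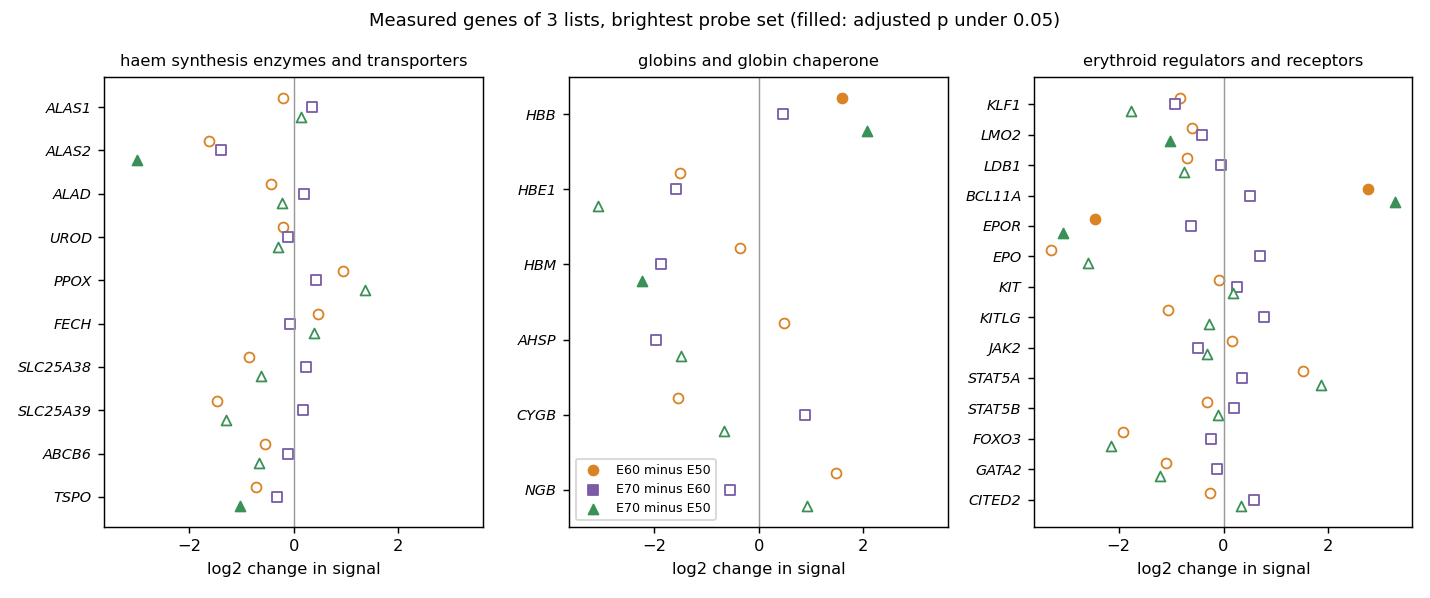
Log2 change of every measured gene of 3 lists in the 3 comparisons, by its brightest probe set (filled symbols, adjusted p under 0.05 over all probe sets). Among haem synthesis genes ALAS2 lies farthest left and FECH and ALAS1 near 0, and among globins HBB alone has filled symbols to the right of 0.

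Of 6 measured of 21 membrane and cytoskeleton genes, 1 passed: CD47, the cell surface signal against engulfment, was lower at E70 than at E50 (-1.39, SE 0.25, adjusted p = 0.00984; -0.68 and 0.0771 under median centring), and the probe sets that passed for this gene pointed the same way. Of 16 measured enzymes of the red cell, GLRX5, which takes part in iron-sulphur cluster assembly, and LDHB, a lactate dehydrogenase subunit, were lower than at E50 at both later stages (E70 minus E50 -1.36, SE 0.25, and -1.49, SE 0.24, adjusted p = 0.0112 and 0.00706), and GLRX5 lost its call at E60 without E60 replicate 1 or 3. Under median centring these E70 minus E50 changes were -0.65 and -0.78 and did not pass (adjusted p = 0.102 and 0.115). GPI, an enzyme of glycolysis, was higher at E70 than at E50 (1.36, SE 0.21, adjusted p = 0.0061). BPGM belongs to this list, and the other 12 measured members did not pass either.

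Of 12 measured iron genes by their brightest probe sets, TF, FTH1 and HAMP were lower at E60 than at E50, and at E70 FTH1 and HAMP were lower and ACO1 higher. Less bright probe sets of other iron genes also passed. That of SLC25A37 was higher at E60 and E70 (adjusted p = 0.0174 and 0.0123), at least 2.25-fold and 2.76-fold since it lay below background at E50. SLC11A2 had a lower one (-2.18 and -2.44, adjusted p = 0.0103 and 0.00609), and FTL a higher one at E70 (0.92, adjusted p = 0.0468). The brightest probe sets of these genes did not pass at E60 or E70 against E50. They changed by -0.07 and 0.31 for SLC25A37 and by 0.02 and 0.40 for SLC11A2. For FTL the brightest one went the other way (-0.62 and -0.47). The less bright probe sets were named after their values were seen. HAMP encodes hepcidin, the hormone that blocks iron export, and fell by 2.25 (SE 0.34, adjusted p = 0.00654) and 2.68 (SE 0.34, adjusted p = 0.00292). It was called in every fit with 1 array left out. At E70 it read 55.9, 59.7 and 50.5 against array backgrounds of 55.8, 38.1 and 48.0, so the size of its fall is uncertain. Its E50 arrays read 378, 235 and 498 against backgrounds of 248, 77.7 and 379. FTH1, the ferritin heavy chain, fell by 0.93 and 0.89 (adjusted p = 0.0227 and 0.026), and these calls were lost without any 1 of the E60 arrays and, at E70, also without any 1 of the E70 arrays. Under median centring its changes were -0.16 and -0.18 (adjusted p = 0.62 and 0.579). TF, transferrin, read 212, 234 and 640 at E50 and 22.5, 7.39 and 97.5 at E60 (adjusted p = 0.0342, kept without E50 replicate 1, E50 replicate 2 or E60 replicate 3). It was above background on 1 of 3 E60 arrays, so the size of the difference was not measured, and its other probe set changed by -0.28 (adjusted p = 0.898). ACO1, which in its iron-free form binds transcripts of iron genes, rose by 0.80 on its brightest probe set (adjusted p = 0.0389, kept, among fits with 1 array left out, only without E50 replicate 1 or E50 replicate 3), while another of its probe sets gave -0.53 for the same comparison and was called lower at E60 than at E50 (-1.25, adjusted p = 0.0116).

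Of 7 measured genes of haem breakdown and scavenging, HMOX1, haem oxygenase 1, was lower at E70 than at E50 (-1.72, SE 0.41, adjusted p = 0.026), a call lost without E50 replicate 2, E70 replicate 1 or E70 replicate 2, and under median centring (-1.01, adjusted p = 0.0972). Of 8 measured genes that clear organelles from the reticulocyte, BNIP3L, a receptor for mitophagy, was higher at both later stages (1.15, SE 0.23, adjusted p = 0.0152, and 1.47, SE 0.23, adjusted p = 0.00595), and its call at E60 was lost without any 1 of the E60 arrays. GABARAPL2, a protein of the autophagosome, was lower at E60 (-0.78, SE 0.21, adjusted p = 0.043), a call kept, among fits with 1 array left out, only without E50 replicate 3, and its change was -0.0033 under median centring (adjusted p = 0.995). Between E60 and E70, limma called 0 of the 79 measured genes by their brightest probe sets, where 0.421% of all probe sets passed. Of the 79 genes, 7 had an unadjusted p under 0.05, as had 7.73% of all probe sets. A second probe set of the regulator FOXO3 was called higher at E70 than at E60 (adjusted p = 0.0127), at least 1.16-fold since it lay below background on all E60 arrays, while its brightest one changed by -0.24 and did not pass. It was named after its values were seen.

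Markers of other cells in the germ moved over the same interval. For macrophages and other leukocytes, 14 of 18 markers were measured and their summed signal went from 5947 to 7471 at E50 through 2286 to 2607 at E60 down to 1017 to 1175 at E70, with 1 higher and 6 lower at E70 than at E50. Among all probe sets 8.16% were called higher and 10.6% lower in this comparison. PTPRC, the defining marker of leukocytes, was above background on 0 of 9 arrays. For endothelium, 13 of 16 were measured and the sum went from 5911 to 6415 through 4658 to 5153 to 3085 to 3658, with 0 higher and 4 lower at E70 than at E50, beside the same shares of all probe sets. Of the 13 endothelial markers, 5 were above background on all 9 arrays, PECAM1 and CDH5 among them. KDR was above it on 3 of 9 arrays, and FLT1 and TIE1 on 4 of 9. PECAM1 and CDH5 changed by 0.17 and 0.26 from E50 to E60 (adjusted p = 0.592 and 0.551). The 4 called lower at E70 were TEK, ENG, ERG and EGFL7. For platelets and megakaryocytes, 4 of 9 were measured, PPBP was above background on 0 of 9 arrays, and the sum was 981 to 1806, 637 to 792 and 310 to 557. Between E50 and E70 HBM and ALAS2 decreased, as these sums did, while HBB increased. From E50 to E60 the change of HBM did not pass (-0.35, adjusted p = 0.564) and had the other sign under median centring (0.42). The sums include signals below background, and the calls of these markers were not followed under other scalings. The part of blood and vessel content in any of the changes was not tested.

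The genes whose course over the 9 arrays was most like that of HBB and ALAS2 were found by the root mean square difference of log2 signal, each gene centred on its own mean, among 4662 genes. For HBB these were TGFB2 (0.16), ITGA2 (0.24), PCLAF (0.25), HNRNPA3 (0.27) and TRIM24 (0.27), against a median over all genes of 1.06. At E50 ITGA2 was above background on 1 of 3 arrays and TRIM24 on 2 of 3, so their likeness rests partly on background signal. For ALAS2 they were TYROBP (0.31), an adaptor of myeloid cells, MYL2 (0.45), VSIG4 (0.47), a macrophage receptor, FBN1 (0.52) and COL5A3 (0.53), against a median of 1.42. At E70 TYROBP and MYL2 were above background on 2 of 3 arrays, as was ALAS2, so their likeness too rests partly on background signal. TYROBP had stage means of 533, 194 and 70.8 beside 623, 203 and 77.9 for ALAS2, signals of different probes that are comparable only in their course.

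**Figure D5:**
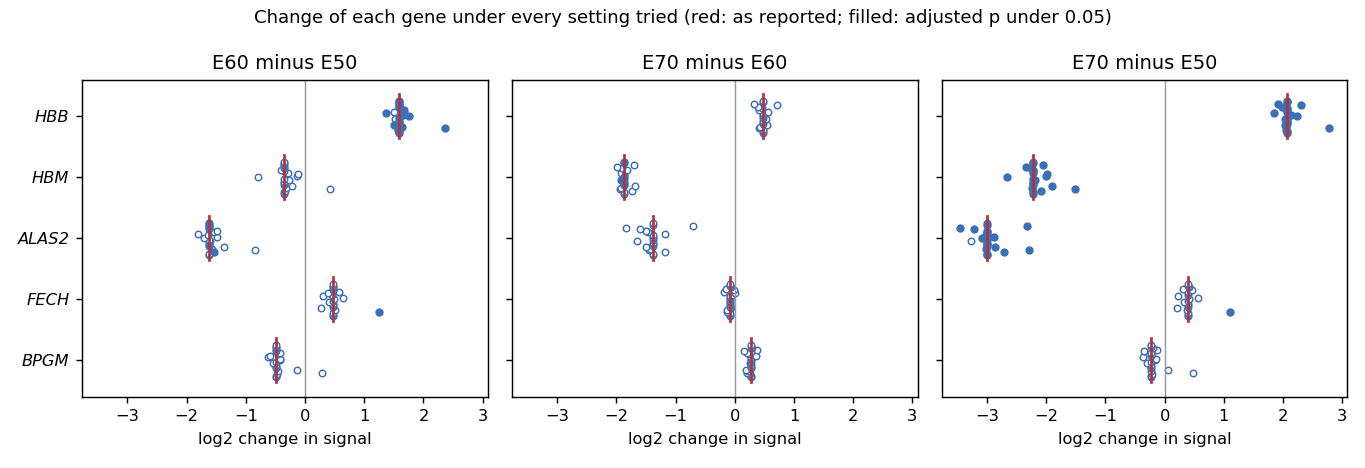
Log2 change of each gene under every setting tried (points; filled, adjusted p under 0.05; red bars, the value reported). Between E50 and E70 HBB stays right of 0 and HBM and ALAS2 left of 0 under all 21 alternatives, whereas the BPGM and E60 minus E50 HBM values cross 0.

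Between E50 and E70 the directions of HBB, HBM and ALAS2 were kept under each of 21 alternative settings, with changes of 1.85 to 2.78, -2.66 to -1.51 and -3.46 to -2.29, and they passed in 21, 20 and 19 of them.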

How the data were processed

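The authors hybridised pooled RNA to the Porcine Genome Array and computed 1 intensity per probe set with MAS 5.0 in GeneSpring, per the labels and the methods; the deposited values are linear and carry no detection calls. Stages came from the labels, and all 9 arrays were used. Values under 1 were set to 1, log2 was taken with no further scaling, and 124 array controls were set aside. All 23999 probe sets were fitted with limma 3.58.1 in R 4.3.3 (lmFit with 1 mean per stage, eBayes without a trend, 1.47 prior degrees of freedom), p-values were adjusted by Benjamini-Hochberg over all of them, and adjusted p under 0.05 was a call. Symbols came from the platform's table, and 9961 Entrez numbers, with those of all 5 genes, were found in the RefSeq table of the pig. A gene was represented by its brightest probe set. Besides the 5 genes, the text names every gene called in the lists of haem synthesis, globins and erythroid regulators, up to 4 called genes of each other pathway list by the F over the stages, and the 5 genes most like HBB and ALAS2 with a mean signal at or above the median. KLF1, HBE1, AHSP, ALAS1, SLC25A37, SLC11A2, FTL and FOXO3 were added after their values were seen. So were the endothelial markers other than PECAM1 and CDH5. The genes and lists were chosen with earlier results of these data known. There is no read depth for arrays, so the number of arrays and the signal over background set the precision. The scripts were tested on simulated data. Alternatives were the floor, pseudocount, scaling, filter, prior, array weights, stages fitted, replicate number as a block, probe set choice and each array left out. Python 3.11.15 with NumPy 2.4.6, pandas 2.3.3 and Matplotlib 3.10.9 made ratios and figures.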

Additional observations from a re-analysis of the deposited data

How the results depend on the processing

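The limits are 3 arrays per stage and an E50 background near several E50 signals. The replicate numbers did not pair the arrays (correlation of deviations -0.02 to 0.03 for the same number and -0.04 to 0.03 for different numbers). With the replicate block, the genes that passed were 2 over the 3 stages, 1 for E60 minus E50, 0 for E70 minus E60 and 3 for E70 minus E50, and ALAS2 lost its call over the 3 stages (adjusted p = 0.0508), while all probe sets called in the pairs numbered 2811, 9 and 2944 against 4436, 101 and 4510. Median centring moved the median change of all probe sets for E60 minus E50 upward by 0.77 and quantile normalization by 0.18. Under median centring HBM and BPGM changed sign for E60 minus E50 (0.42 and 0.28), BPGM changed sign for E70 minus E50 (0.49, and 0.053 with quantile normalization), and FECH passed in both comparisons with E50 (1.25 and 1.11, adjusted p = 0.0311 and 0.0447). The cause was not tested. HBB for E60 minus E50 missed the threshold with array weights (1.52). ALAS2 for E60 minus E50 passed with log2(signal + 16) (-1.54), the filter at the median (-1.61) and the fit of these stages alone (-1.61). HBM for E70 minus E60 passed with the filter (-1.87), array weights (-1.92) and the fit of these stages alone (-1.87). For E70 minus E50 the fit of the stages alone ended the calls of HBM (-2.22) and ALAS2 (-3.00), and array weights that of ALAS2 (-3.27). ACO1 changed sign for E70 minus E50 with the mean of its probe sets (-0.29).

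The number of the 5 genes that passed over the 3 stages was 1 with array weights in place of 3, 2 with quantile normalization (without ALAS2), 3 with median centring (with FECH in place of ALAS2), and 1 to 3 with 1 array left out (1 without E70 replicate 1, when HBM and ALAS2 missed). For E60 minus E50 it was 2 in place of 1 with log2(signal + 16), median centring, the filter and the fit of these stages alone, 0 with array weights, and 0 to 2 with 1 array left out (0 without E60 replicate 1 or 3, 2 without E70 replicate 3). For E70 minus E60 it was 1 in place of 0 with the filter, array weights and the fit of these stages alone, and 0 to 1 with 1 array left out (1 without E50 replicate 1). For E70 minus E50 it was 1 in place of 3 with the fit of these stages alone, 2 with array weights and 4 with median centring. Leaving out 1 array gave changes of 1.37 to 1.75 (HBB), -1.81 to -1.49 (ALAS2), -0.79 to -0.12 (HBM), 0.30 to 0.63 (FECH) and -0.63 to -0.42 (BPGM) for E60 minus E50. For E70 minus E60 it gave 0.32 to 0.71 (HBB), -1.99 to -1.71 (HBM), -1.84 to -0.70 (ALAS2), -0.18 to 0.011 (FECH, above 0 without E60 replicate 2) and 0.15 to 0.37 (BPGM). For E70 minus E50 the ranges were 1.85 to 2.31 (HBB), -2.66 to -1.98 (HBM), -3.46 to -2.32 (ALAS2), 0.22 to 0.56 (FECH) and -0.36 to -0.12 (BPGM). Over all probe sets, array weights gave 1871, 934 and 2015 calls in the 3 pairs, the fits of the stages alone 2087, 420 and 1877, the filter 375 and eBayes with an intensity trend 366 for E70 minus E60, and median centring 67.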

Other observations

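The array also holds 3 control probe sets for the erythropoietin receptor, which enter no comparison above. They lay above background on 2, 3 and 3 of 9 arrays. The one at the 5' end read 196, 446 and 673 at E50, 35.8, 50.6 and 53.4 at E60, and 20.9, 38.8 and 33.8 at E70. The one at the 3' end read 14.4, 372 and 28.4, then 44.1, 11.7 and 5.01, then 43.4, 13.5 and 10.0. The middle one read 90.1, 185 and 66.7, then 32.4, 58.8 and 8.50, then 111, 17.2 and 9.57.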
